A study of Mus musculus with 5 samples.

Results

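The 10 genes described here are regulators and structural genes of skeletal muscle, followed in mouse embryonic fibroblasts (MEFs) during their conversion to neuron-like cells. They were taken as a fixed list of names and matched by symbol to 10 of the 27729 genes in the deposited values. Myod1 and Myog encode transcription factors that drive muscle differentiation. Chrna1 encodes the alpha subunit of the muscle acetylcholine receptor. The other 7 genes encode parts of the contractile filaments. MEFs are connective tissue cells cultured from mouse embryos, here of the ICR strain, and the study's methods state that the head and internal organs were taken off and that weakly attached cells were washed away before use. On day 0 the MEFs were in medium with serum, and on days 2, 5, 10 and 14 they were in 5C medium, a serum-free medium built on DMEM/F12 with the N2 supplement, vitamin C, 2-mercaptoethanol and the growth factors bFGF and LIF. The labels call the medium 6C, and one protocol text beside the library labelled day 14 names day 15 instead. Each day is 1 library of total RNA from a whole culture, and no culture kept in serum medium for the same time was analysed here, so 5C medium, loss of serum and time in culture cannot be told apart.

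In skeletal muscle, MyoD and myogenin bind short DNA motifs called E-boxes together with E proteins and switch on the genes of the contractile apparatus. Muscle contracts when myosin heads of the thick filament pull on actin of the thin filament, and the troponin complex on the thin filament opens or closes the myosin sites as calcium rises and falls. The nerve starts the process by releasing acetylcholine onto receptors that contain the product of Chrna1. Fibroblasts that take on contractile features, called myofibroblasts, use smooth muscle actin in place of the skeletal form.

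Library depth, as the total of the rounded expected counts (estimated reads per gene), ranged from 2253716 for day 2 to 3890310 for day 0. Normalized counts are expected counts divided by library sizes from the trimmed mean of M-values (TMM) method and brought to a common scale. A change is the log2 of a later day's normalized count over that of day 0, with 1 added to each, and a gene is called over 2-fold where this exceeds 1 in size. Where 5 values follow each other they belong to days 0, 2, 5, 10 and 14, and 4 values belong to the 4 later days. With 1 library per day there is no test and no p-value, and the 95% intervals given are exact intervals of the counts, which cover counting error only and not differences between cultures. The same limit applies to the floor of 3 counts per library. A fold against a library with 0 counts is a bound computed at that floor. It leaves out the counting error of the other library, so the counting interval can reach smaller folds. A library with 1 to 3 counts gives a ratio with its counting interval and no bound, and no fold is given where both libraries hold 3 counts or fewer. Bounds and ratios are not on the same footing and are not ranked against each other. All 10 fibroblast markers examined were detected in all 5 libraries, and 3 were over 2-fold above day 0 on day 14 and 3 below, with a median change of 0.09. Their summed level was 3009 TPM on day 0 and 10350 TPM on day 14, where TPM is the share of a gene among all transcripts after division by length. The scale affects the direction of many genes. TPM values in place of normalized counts shifted the median change of all 13346 genes tested by -0.17, 0.56, 0.95 and 0.72, and total counts without TMM shifted it by -0.08, 0.37, 0.46 and 0.35. Among genes called over 2-fold, the share above day 0 was 53.7%, 59.6%, 56.3% and 55.2% on the 4 later days. That share was 36.0%, 88.9%, 88.6% and 85.7% with TPM values, and 48.3%, 79.1%, 73.1% and 70.4% with total counts.

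Most of the 10 genes were already low in MEFs, and the summed level of all 10 was lower in 5C medium. Acta1, skeletal alpha-actin, was the exception in level, with a TPM of 143 on day 0, while the other 9 genes together had 38.5 TPM. The 10 genes together held 181.8, 41.0, 18.5, 18.9 and 7.14 TPM, and the 9 without Acta1 held 38.5, 29.4, 14.6, 17.7 and 4.67 TPM. The drop of the 10-gene sum on day 2 was mostly that of Acta1, which had 11.6 TPM on that day. In normalized counts the other 9 did not fall on day 2, with a sum of 101.5 on day 0 and 108.5 on day 2. Their sum was 35.4 on day 5. All 10 genes had 1 or more counts in the day 0 library, and the number without any count was then 2, 1, 3 and 5. In RNA from whole cultures, fewer cells of a type and less RNA per cell cannot be told apart.

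Of the 10 genes, 7 reached 10 expected counts in 1 or more libraries and entered the calls. Myod1, Myog and Tnnt3 did not. Actc1, Myh3, Tnni1 and Mylpf passed through day 0 alone and Chrna1 through days 2 and 5 alone, so that these had to differ. Tnnt1 passed through days 0 and 2 alone, so its low values from day 5 on were partly fixed as well. The counts of calls describe the genes and support no direction. On day 2, 2 of the 7 were over 2-fold above day 0 (Tnnt1 and Chrna1) against 15.2% of all genes tested, and 5 were over 2-fold below it (Acta1, Actc1, Myh3, Tnni1 and Mylpf) against 13.1%. The counting interval excluded 0 for both genes above and for 2 of the 5 below, Acta1 and Actc1. On day 5, Chrna1 was the 1 gene above, against 20.2% of genes tested, and the other 6 were below, against 13.6%, all 7 with intervals that excluded 0. On day 10 none of the 7 was above and 6 were below, where 28.7% of genes tested were above and 22.3% below. The interval excluded 0 for 5 of these 6, Tnnt1 being the exception. On day 14 none was above and 6 were below, where 24.5% were above and 19.9% below, and all 6 intervals excluded 0. The median change over all 10 genes was -1.21, -2.05, -2.94 and -2.97, beside medians of -0.03, 0.05, 0.14 and 0.07 over the genes tested. With genes that lost all counts placed at the bound of 3 counts, and genes at or under 3 counts on both days left out, the medians were -1.24, -2.11, -2.21 and -2.37. The sets behind these medians are unlike, because Myod1, Myog and Tnnt3 would not pass the filter of the genes tested. The 10 genes were also chosen with earlier results known, so the medians describe them and support no direction.

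**Figure D1:**
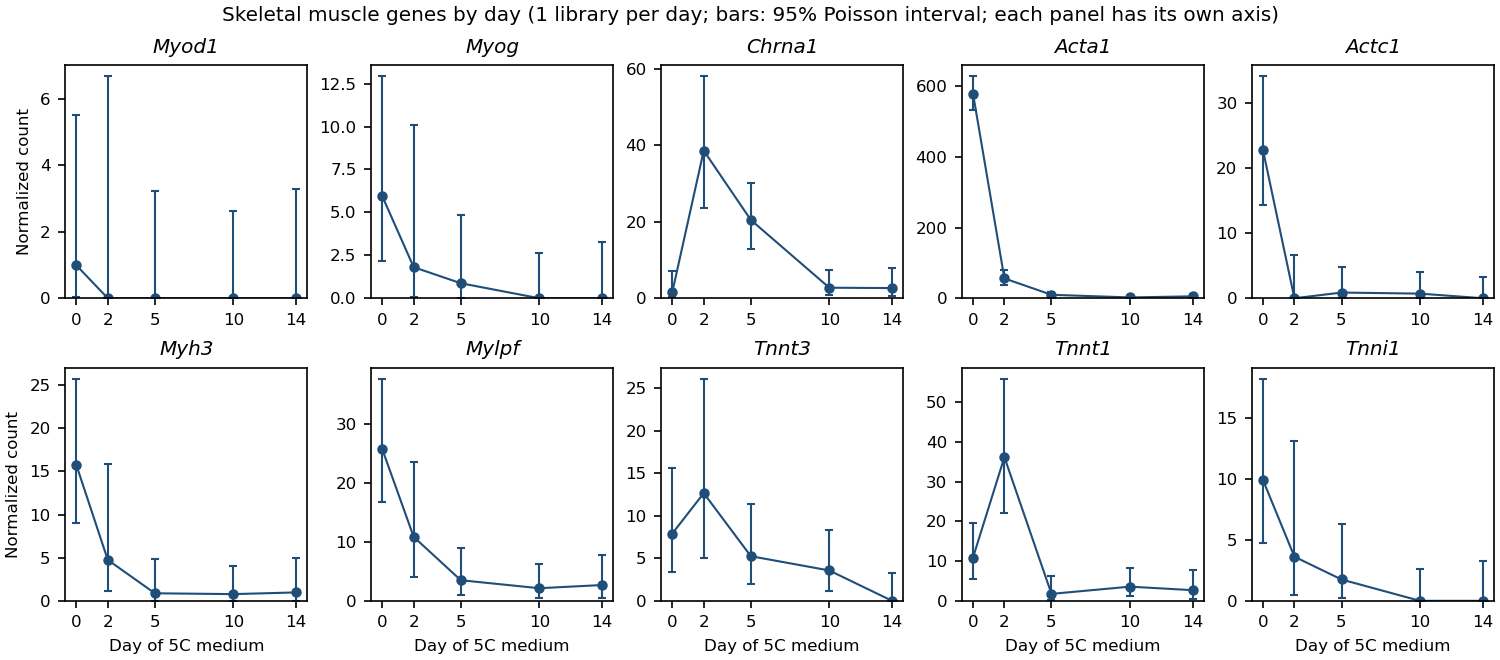
Normalized counts (vertical axes, a separate scale for each gene) against the day of 5C medium for the 10 genes, with 1 library per day and bars for the 95% Poisson interval of the count. Acta1 starts at 579 on day 0 and lies below 60 from day 2, while Chrna1 peaks at 38.6 and Tnnt1 at 36.2 on day 2.

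Myod1, which encodes the factor that commits cells to the muscle lineage (ENSMUSG00000009471, GRCm38 chromosome 7, 46376474 to 46379099, plus strand), was almost without counts. The day 0 library held 1 expected count and the 4 later libraries held 0. No fold can be given at this level. The 0 counts on day 10 had a 95% Poisson interval that reached 2.63 normalized counts, where the floor of 3 counts stood at 2.14.

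Myog, which encodes myogenin, the factor that acts when myoblasts leave the cell cycle and fuse (ENSMUSG00000026459, chromosome 1, 134289989 to 134292548, plus strand), was little higher. It had 6, 1, 1, 0 and 0 expected counts. Day 0 was the highest library, and the ratio of the 1 count on day 2 to it was 0.305 with a 95% interval of 0.00662 to 2.51, which includes no change. At the floor of 3 counts per library, Myog was at least 2.77-fold lower on day 10 and at least 2.21-fold lower on day 14. With the counting error of day 0 included, these falls can be as small as 1.63-fold and 1.30-fold. Neither gene reached the 10 counts needed for a call.

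Other genes that define muscle precursors and fibres were as scarce, and are named here after their values were seen. Myf5 and Myf6, the remaining myogenic factors, had 0 counts in all 5 libraries. Pax7, a marker of satellite cells, had 1 count on day 5 and 0 on the other days. Mymk, which drives myoblast fusion, had 6 counts on day 0 and 0 afterwards, and Ckm, the muscle creatine kinase, had at most 1 count in any library.

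Chrna1 (ENSMUSG00000027107, chromosome 2, 73563215 to 73580338, minus strand) went the other way in early 5C medium. Its 5 libraries held 1.67, 21.4, 23.4, 3.86 and 2.98 expected counts. Scaled for library size, these were normalized counts of 1.65, 38.6, 20.5, 2.76 and 2.66, so days 2 and 5 stood above the other 3 libraries, and their 95% intervals did not overlap those of the other libraries. Chrna1 rose on both days, with a ratio to the 1.67 counts of day 0 of 23.4 on day 2 (95% interval 4.69 to 168.9) and 12.4 on day 5 (2.51 to 89.0), so the size of the rise is loosely set. Between days 2 and 5 the log2 change was -0.88 with an interval of -1.83 to 0.01. Between days 5 and 10 Chrna1 fell by 2.52 (interval of the change -4.81 to -1.27). The ratio of day 10 to day 0 was 1.67 with an interval of 0.207 to 16.0, and the day 14 library, like that of day 0, held under 3 counts, so no fold is given for it. The log2 change on day 2 was 3.90, and 1.66 with TPM values, to which 1 was also added. Chrna1 counts were not whole numbers in 5 of 5 libraries, so the estimates split some reads between genes, and 85 of its 4337 windows of 50 bases, or 1.96%, also occur in other genes, among them Trim12a, Gm16702 and Arhgef2. How far reads of other genes enter its counts was not tested.

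The promoter of Chrna1 is shown because E-boxes, the sites that myogenic factors and many other helix-loop-helix proteins recognise, lie close to its start. The 300 bases run from 250 before to 50 after the RefSeq start, chr2:73580289-73580588 on the minus strand of GRCm38.p6, with 3 matches to CANNTG in capitals, at -92, -73 and -44 from the start.
Chrna1 promoter: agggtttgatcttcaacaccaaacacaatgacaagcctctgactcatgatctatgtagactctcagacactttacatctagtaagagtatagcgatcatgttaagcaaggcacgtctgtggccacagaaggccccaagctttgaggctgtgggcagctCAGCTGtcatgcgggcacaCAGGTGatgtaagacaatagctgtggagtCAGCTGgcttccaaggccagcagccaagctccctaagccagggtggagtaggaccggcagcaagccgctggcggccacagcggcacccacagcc
Matches to CANNTG, which reads the same way on both strands and can overlap no CArG box, are common. Of 32851 mouse promoters of this length 72.3% hold 1 or more, as do the promoters of all 8 of the 10 genes with an entry, and a match is not a site of binding.

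Most other genes of the receptor and its endplate had too few counts to give a course. Of 11 other genes of the receptor and the nerve-muscle junction, 3 reached 10 counts, with 0, 2, 2 and 2 over 2-fold above day 0 and 0, 0, 1 and 1 below. Among all genes tested 15.2%, 20.2%, 28.7% and 24.5% were above and 13.1%, 13.6%, 22.3% and 19.9% below. Chrnb1, the beta subunit, is named here after its values were seen, and had 29, 15, 31, 13 and 14 expected counts, with log2 changes of -0.08, -0.08, -1.53 (interval -2.70 to -0.64) and -1.14 (-2.23 to -0.23). The delta subunit gene Chrnd had 2 counts on day 5 and 0 on the other days, the fetal gamma subunit gene Chrng had at most 2 counts, and the adult epsilon subunit gene Chrne had 3 counts on day 2 and 0 on the other days. Of the 3 genes counted, those above on days 5, 10 and 14 were Agrn and Lrp4. Agrn, which encodes the signal that gathers acetylcholine receptors under the nerve, had 358, 172, 1152, 4879 and 3983 expected counts, and log2 changes of -0.19, 1.51, 3.29 and 3.33. Lrp4, which encodes the receptor for agrin, had 11, 8.95, 35, 209 and 154 expected counts, and log2 changes of 0.53, 1.41, 3.66 and 3.54. Agrn and Lrp4 stayed high on days 10 and 14, when Chrna1 was back near its day 0 level. Neither gene is limited to muscle. The 8 Schwann cell and neural crest markers examined had summed levels of 9.26, 16.4, 170.4, 1494 and 1456 TPM, with 1 of them at 0 on day 0 and none later, and their part in these values was not tested.

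Acta1 (ENSMUSG00000031972, chromosome 8, 123891769 to 123894751, minus strand), the actin of adult skeletal thin filaments, showed the largest change of the 10 genes on days 5, 10 and 14 and rests on the most counts. Its 5 libraries held 585, 31.0, 11.2, 3.15 and 6.10 expected counts, or 579, 56.1, 9.81, 2.25 and 5.45 normalized counts. Day 0 stood far above every later library, and days 5, 10 and 14 had overlapping counting intervals. Acta1 fell 10.3-fold by day 2 (log2 change -3.35, interval -3.94 to -2.85) and 59.1-fold by day 5 (-5.75, interval -6.92 to -5.06). It was 258-fold lower on day 10, with an interval of 92.0-fold to 1314-fold, and 106-fold lower on day 14. The log2 change between days 2 and 5 was -2.40 and between days 5 and 10 it was -1.73, with intervals that excluded 0. Between days 10 and 14 it was 0.99 with an interval of -0.90 to 3.95, so a difference between the last 2 libraries was not detectable at this depth.

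Actc1 (ENSMUSG00000068614, chromosome 2, 114047282 to 114053548, minus strand), cardiac alpha-actin, which embryonic skeletal muscle also uses, had 5.48 TPM on day 0 where Acta1 had 143. Its 5 libraries held 23, 0, 1, 1 and 0 expected counts. Every later library lay below the counting interval of day 0. At the floor of 3 counts, Actc1 was at least 4.19-fold lower on day 2 and at least 8.49-fold lower on day 14. The counting intervals of these falls reach down to 3.14-fold and 6.36-fold. Days 5 and 10 rest on 1 count each, with ratios to day 0 of 0.0384 (interval 0.000933 to 0.237) and 0.0314 (0.000762 to 0.193).

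The promoters of both actin genes are shown because each holds a CArG box, the motif bound by serum response factor, which drives actin genes when serum signals reach the cell. The capitals mark the box, at -73 in Acta1 (chr8:123894726-123895025) and at -47 in Actc1 (chr2:114052826-114053125), both on the minus strand of GRCm38.p6.
Acta1 promoter: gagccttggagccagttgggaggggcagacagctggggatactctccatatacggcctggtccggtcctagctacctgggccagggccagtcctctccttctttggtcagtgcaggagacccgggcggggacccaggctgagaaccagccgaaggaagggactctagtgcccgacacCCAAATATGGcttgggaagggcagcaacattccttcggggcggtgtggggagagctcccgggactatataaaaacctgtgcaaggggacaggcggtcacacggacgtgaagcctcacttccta
Actc1 promoter: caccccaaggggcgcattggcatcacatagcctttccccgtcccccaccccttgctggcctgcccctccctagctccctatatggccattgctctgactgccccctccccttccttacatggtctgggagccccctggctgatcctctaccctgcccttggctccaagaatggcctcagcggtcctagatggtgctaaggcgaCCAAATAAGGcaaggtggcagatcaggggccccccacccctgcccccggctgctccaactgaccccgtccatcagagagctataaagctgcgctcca
The CArG box was searched on both strands, and 1.63% of the 32851 promoters, or 535 of them, hold it. Among the 8 genes with a RefSeq entry these 2 promoters held it, while no match in the other genes says only that the motif is not in this window. Srf itself, which encodes serum response factor, had 327, 161, 173, 163 and 193 expected counts, and log2 changes of -0.15, -1.09, -1.47 and -0.90. In TPM its levels were 27.8, 20.8, 21.3, 22.5 and 27.2, and with TPM values or total counts no gene of its list was over 2-fold below day 0 on day 5 or day 10. Its co-activators Mrtfa and Mrtfb, which carry actin signals to the nucleus, differed in direction. Mrtfa changed by 0.08, -0.66, -0.47 and -1.07, and Mrtfb by 0.50, 0.45, 1.26 and 0.61.

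The course of Acta1 was close to that of an actin of smooth muscle. Acta2, which encodes smooth muscle alpha-actin and marks myofibroblasts, had 32380, 1838, 762, 354 and 159 expected counts. Its log2 changes were -3.27, -5.59, -6.98 and -7.81, where those of Acta1 were -3.35, -5.75, -7.48 and -6.49. The Acta1 share of the counts of both genes was 1.78% in the day 0 library, with an exact 95% interval of 1.63 to 1.92%. It was then 1.66% (1.13 to 2.35%), 1.45% (0.712 to 2.53%), 0.881% (0.174 to 2.44%) and 3.70% (1.35 to 7.75%). All 4 later intervals overlapped that of day 0. Against Actg2, the other smooth muscle actin, the Acta1 share was not steady, at 27.8% (25.8 to 29.7%), 12.1% (8.38 to 16.7%), 9.33% (4.67 to 15.8%), 7.47% and 26.4% (10.2 to 48.4%), with 3.15 Acta1 counts behind the 7.47%.

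**Figure D2:**
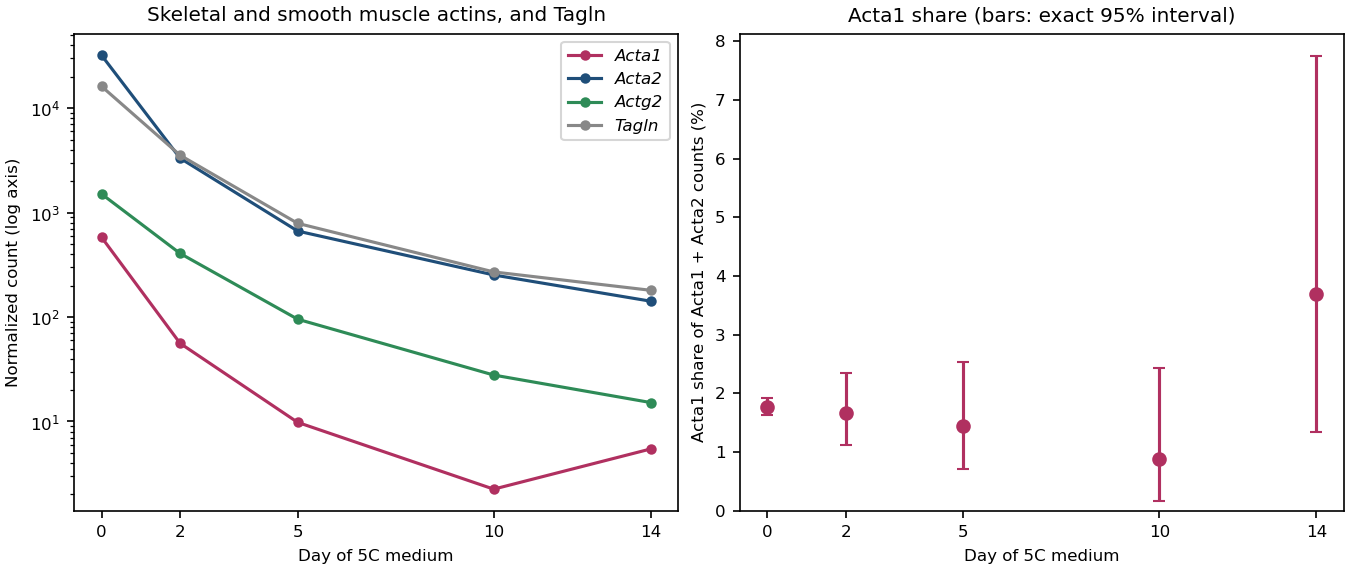
Left, normalized counts on a log axis of Acta1, the smooth muscle actins Acta2 and Actg2, and Tagln, by day. Right, the Acta1 share of the counts of Acta1 and Acta2 in percent with exact 95% intervals, which all overlap that of day 0, 1.63 to 1.92%.

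The actin transcripts resemble each other, and the sequence they share was counted. Of 1397 windows of 50 bases along Acta1, 0 were identical to Acta2 and 8 lay within 2 mismatches of it, or 0.573%. With Actb, cytoplasmic beta-actin, 28 windows were identical and 94 lay within 2 mismatches. The length of the reads is not given in the sources used here, and shorter reads would share more. Acta1 counts were not whole numbers in 5 of 5 libraries, so the estimates split some reads between genes, while Actc1 counts were whole in all of them. How far reads of other actins enter the Acta1 counts was not tested.

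A comparison of each gene's 4 changes with those of Acta1 over 10199 genes with 50 or more counts put Acta2 among the nearest. The measure was the root mean square difference of the log2 changes, over 5 libraries that share 1 day 0 library. Slc16a3, a lactate transporter of glycolytic cells, was closest at 0.371, then Acta2 at 0.710, Slc1a6 at 0.813 and, further off, Myo1h at 0.914. Tagln, an actin-binding protein of smooth muscle, lay at 1.20. The other 9 muscle genes never reached 50 counts and were not compared. All 9 genes of the smooth muscle and myofibroblast list were measured, and 8 of them were over 2-fold below day 0 on each of the 4 later days. Among all genes tested 13.1%, 13.6%, 22.3% and 19.9% were below. The summed level of the 9 was 11299 TPM on day 0 and 213 TPM on day 14. None of the 9 was at 0 in any library, and their part in the change of the skeletal genes was not tested.

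**Figure D3:**
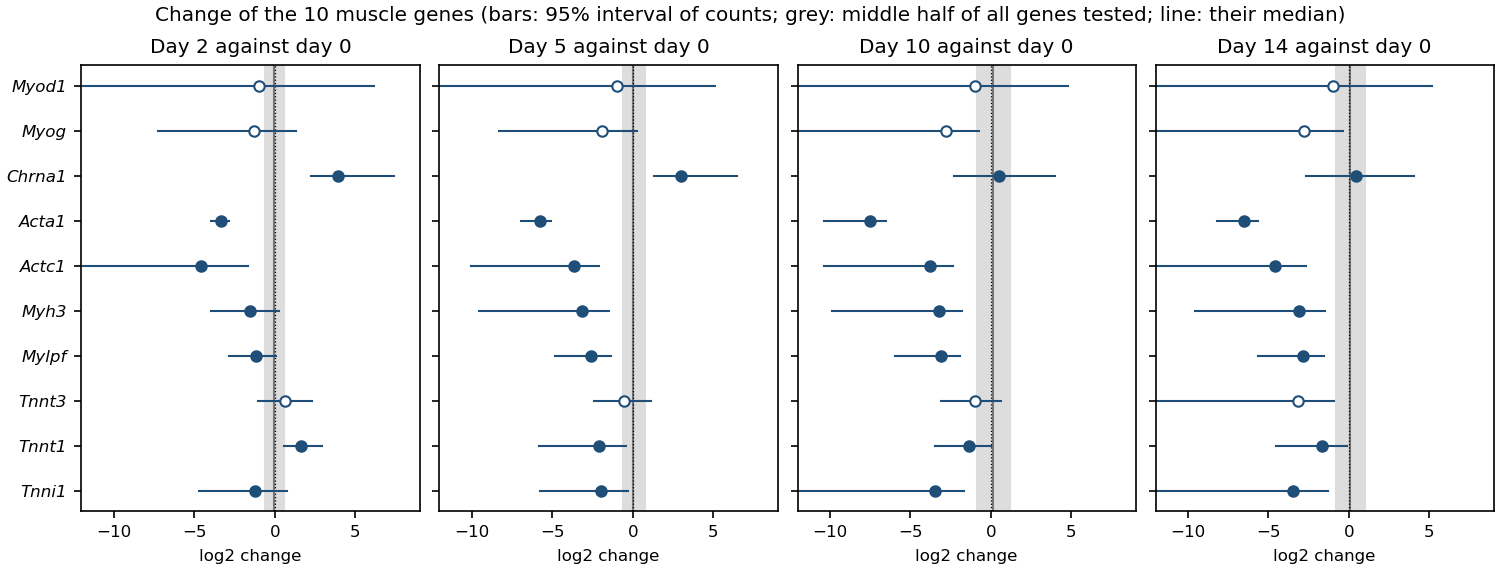
Log2 change from day 0 (horizontal axes) of the 10 genes on each later day, with bars for the 95% counting interval, which are drawn to the panel edge where they have no lower bound. Open circles are the 3 genes under 10 counts, and the grey band spans the quartiles of all genes tested, from -0.86 to 1.17 on day 10, when 6 of the 7 filled circles lie below it.

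The thick filament was represented by Myh3 and Mylpf. Myh3 (ENSMUSG00000020908, chromosome 11, 67078300 to 67102291, plus strand), embryonic myosin heavy chain, is the motor protein of newly formed fibres. Its 5 libraries held 15.9, 2.62, 1, 1.09 and 1.09 expected counts. Day 0 was the highest library, and its interval overlapped that of day 2 but not those of the 3 later days. The log2 change on day 2 was -1.54 with an interval of -3.97 to 0.26, and on day 5 it was -3.16 (-9.57 to -1.49). The changes on days 10 and 14 were -3.23 (-9.86 to -1.78) and -3.08 (-9.54 to -1.46). With TPM values, to which 1 was also added, the changes on days 5, 10 and 14 were -0.83, -0.80 and -0.79, no longer past 2-fold. The TPM levels of the long Myh3 transcript were 0.92, 0.23, 0.08, 0.1 and 0.11, all under the 1 that was added, which shrinks these changes. Of the 6053 windows of 50 bases along Myh3, 4.76% also occur in other genes, among them Myh13, Myh2 and Myh1.

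Mylpf (ENSMUSG00000030672, chromosome 7, 127208890 to 127214298, plus strand), the regulatory light chain of fast skeletal myosin, had more counts on day 0 than any of the 10 genes but Acta1. They numbered 26, 6, 4, 3 and 3. The 3 later libraries from day 5 on lay below the interval of day 0 without overlap. The log2 change was -1.17 on day 2 with an interval of -2.82 to 0.07, then -2.57 (-4.86 to -1.35), -3.09 (-5.95 to -1.88) and -2.86 (-5.63 to -1.56). In TPM the levels were 17.1, 4.91, 3.36, 8.28 and 2.30, so the 3 counts of day 10 gave a higher TPM than the 4 counts of day 5, and the TPM change on day 10 was -0.96.

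The troponins differed among themselves. Tnnt1 (ENSMUSG00000064179, chromosome 7, 4504570 to 4516382, minus strand) encodes slow skeletal troponin T, which ties the troponin complex to tropomyosin. It had 11, 20, 2, 5 and 3 expected counts, or 10.9, 36.2, 1.75, 3.57 and 2.68 normalized counts. Day 2 was the highest library, and its counting interval overlapped that of none of the others. Tnnt1 rose 3.32-fold on day 2 (95% interval 1.52 to 7.68) and then fell by 3.76 on the log2 scale up to day 5 (interval of the change -7.51 to -2.33). Against day 0, the changes on days 5, 10 and 14 were -2.11 (-5.85 to -0.44), -1.38 (-3.48 to 0.03) and -1.69 (-4.50 to -0.10).

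Tnnt3 (ENSMUSG00000061723, chromosome 7, 142498836 to 142516009, plus strand), fast skeletal troponin T, had expected counts of 8, 7, 6, 5 and 0 from day 0 to day 14 and stayed under 10 in every library. Its normalized counts of 7.92, 12.7, 5.25 and 3.57 on the first 4 days had overlapping intervals. At the floor it was at least 2.95-fold lower on day 14 than on day 0, and the counting interval reaches down to 1.89-fold. The log2 changes of Tnnt3 of -0.51 on day 5 and -0.96 on day 10 became 0.05 and 0.24 with TPM values. No direction can be given for days 2 to 10 at this depth.

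Tnni1 (ENSMUSG00000026418, chromosome 1, 135779434 to 135810989, plus strand), slow skeletal troponin I, which holds the filament in the relaxed state, had expected counts of 10, 2, 2, 0 and 0. Day 0 was the highest library. The log2 change was -1.24 on day 2 with an interval of -4.68 to 0.78 and -1.99 on day 5 with an interval of -5.73 to -0.27. At the floor, Tnni1 was at least 4.62-fold lower on day 10 and at least 3.69-fold lower on day 14, and the counting intervals reach down to 3.11-fold and 2.48-fold.

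The troponin genes and Mylpf are short, with mean transcript lengths of 572 to 794 bases, and short genes as a class moved with the day. The 421 genes tested in this length range had median changes of 0.21, -0.95, -1.71 and -1.21. The 698 genes of 1239 to 1433 bases, the range of Actc1 and Acta1, had medians of 0.02, -0.26, -0.64 and -0.43. Mylpf and Tnni1 were below the median of their length class on all 4 days, Tnnt1 was below it on days 5 and 14 and above it on days 2 and 10, and Tnnt3, which stayed under 10 counts, was above it on days 2, 5 and 10 and below it on day 14. Mylpf and Tnni1 reached 10 counts on day 0 alone, so their low later values were fixed in part by that filter. The counting intervals of Tnni1 on days 2, 5 and 10 included the class median. So did those of Tnnt1 on days 5, 10 and 14 and of Tnnt3 on all 4 days. The part of transcript length in these changes was not tested. Strand is not stated for the counting, and the gene spans of Acta1, Actc1 and Tnnt3 overlap those of Gm20388, A530058N18Rik and Prr33 on the opposite strand. Overlap of their exons was not examined. Actc1 and Tnnt3 counts were whole in all 5 libraries, and how far reads of these pairs mix was not tested.

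The wider muscle program held 101 further genes in 8 lists, of which 42 reached 10 counts. Over 2-fold above day 0 were 6, 7, 16 and 13 of the 42 on days 2, 5, 10 and 14, and over 2-fold below were 13, 16, 15 and 18. Among all genes tested 15.2%, 20.2%, 28.7% and 24.5% were above and 13.1%, 13.6%, 22.3% and 19.9% below. Their median changes were -0.19, -0.05, -0.42 and -0.48, beside -0.03, 0.05, 0.14 and 0.07 over all genes tested. The lists were chosen with results of these data known and are not independent evidence of a direction. Some genes reached 10 counts only in libraries where they were high, so the counts of calls for each list support no direction.

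Developmental and shared sarcomere genes were called both above and below day 0, with more below than above from day 5 on. Of 19 genes 11 were counted, and 3, 7, 7 and 6 of them were over 2-fold below day 0 on days 2, 5, 10 and 14, beside 3, 2, 3 and 3 above. Among all genes tested 13.1%, 13.6%, 22.3% and 19.9% were below and 15.2%, 20.2%, 28.7% and 24.5% above. The 3 above on day 2, Myh8, Unc45b and Xirp1, held 6.64, 2 and 1 expected counts in that library. They reached 10 counts on day 5 or later alone, and Myom1 and Myom2 on day 0 alone. The calls of these genes were partly fixed by that filter. Tpm2, beta-tropomyosin, which lies along the actin filament, had 9742, 3776, 979, 299.9 and 164 expected counts, and log2 changes of -0.50, -3.49, -5.49 and -6.03. Tpm1, alpha-tropomyosin, fell by 2.08 on day 2 and by 3.09 on day 14. Des, which encodes desmin, the intermediate filament of muscle cells, had log2 changes of -0.87, -1.82, -3.42 and -3.92. Cryab, a small heat shock protein of muscle and other tissues, did not keep to this course, with changes of -1.33, -1.87, -1.08 and 0.82. Tropomyosins and desmin also serve smooth muscle and myofibroblasts, whose markers are given above.

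Among 8 slow sarcomere genes 3 were counted. Tnnc1, slow troponin C, which binds the calcium that starts contraction, had 63, 39.1, 13, 5 and 1 expected counts, and log2 changes of 0.18, -2.36, -3.79 and -5.06. Its 62.3 and 70.7 normalized counts on days 0 and 2 had a log2 ratio interval of -0.44 to 0.78, so the falls of Tnnc1 were on day 5 and later. Tpm3 changed by 0.84, -0.56, -0.95 and -1.17, and Atp2a2, the calcium pump of slow and cardiac muscle, by -1.02, 0.18, 0.50 and 0.31. Of 9 fast sarcomere genes 1 was counted, Tnni2, fast troponin I, named as the lone gene of its list. It had 4, 12, 7, 0 and 1 expected counts, with a log2 change on day 2 of 2.20 (interval 0.73 to 4.54). It reached 10 counts on day 2 alone, so its high day 2 was fixed by that filter.

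Of the 19 genes for excitation, calcium release and energy supply 5 were counted. On the 4 later days 3, 3, 2 and 3 were over 2-fold below day 0 and 0, 1, 1 and 1 above. Among all genes tested 13.1%, 13.6%, 22.3% and 19.9% were below and 15.2%, 20.2%, 28.7% and 24.5% above. The gene above was Pygm, at 1.65, 1.38 and 1.19 on days 5, 10 and 14, which reached 10 counts on days 5 and 10 alone. Eno3, muscle enolase, had 744, 39, 25, 48 and 36 expected counts, and log2 changes of -3.37, -5.01, -4.39 and -4.47. Jph2, which holds the calcium store against the outer membrane, had 728, 119, 77, 56 and 30 expected counts, and changes of -1.74, -3.40, -4.14 and -4.70.

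Genes that act before muscle differentiation took other courses. Of 14 determination and precursor genes 7 were counted, with 2, 2, 5 and 3 over 2-fold above day 0 and 3, 2, 0 and 2 below. Among all genes tested 15.2%, 20.2%, 28.7% and 24.5% were above and 13.1%, 13.6%, 22.3% and 19.9% below. The 5 above on day 10 became 2 with TPM values recentred to the median change of the normalized counts, a 4-fold threshold or 50 or more counts. Met, the receptor that guides migrating muscle precursors and is used by many other cells, had 26, 30.3, 55.1, 155 and 220 expected counts, and log2 changes of 1.06, 0.88, 2.06 and 2.89. Eya1, a transcriptional co-activator in muscle precursors, was over 2-fold above day 0 on day 10, at 1.44, and changed by 0.17 on day 14. Of 10 genes for MEF2 factors and their partners 6 were counted, with 3 above and 1 below on day 10. Mef2c, a partner of myogenic factors that also acts in neurons, had 12, 4, 26, 71 and 105 expected counts, and changes of -0.64, 0.88, 2.01 and 2.88.

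Of 11 genes for fusion and the fibre membrane 6 were counted, with 0, 0, 2 and 2 above and 3, 2, 2 and 2 below on the 4 later days. Among all genes tested 15.2%, 20.2%, 28.7% and 24.5% were above and 13.1%, 13.6%, 22.3% and 19.9% below. Dmd, which encodes dystrophin and shorter forms made in glia, had 26, 6, 35, 307 and 99 expected counts, and log2 changes of -1.17, 0.24, 3.04 and 1.74. Ncam1, an adhesion molecule of muscle and nerve, changed by -1.58, -2.09, -0.72 and -2.99. Jam2 changed by -1.39, -1.31, -1.28 and -1.45, and Dysf, a membrane repair protein, by -0.20, -0.83, -1.46 and 0.58.

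**Figure D4:**
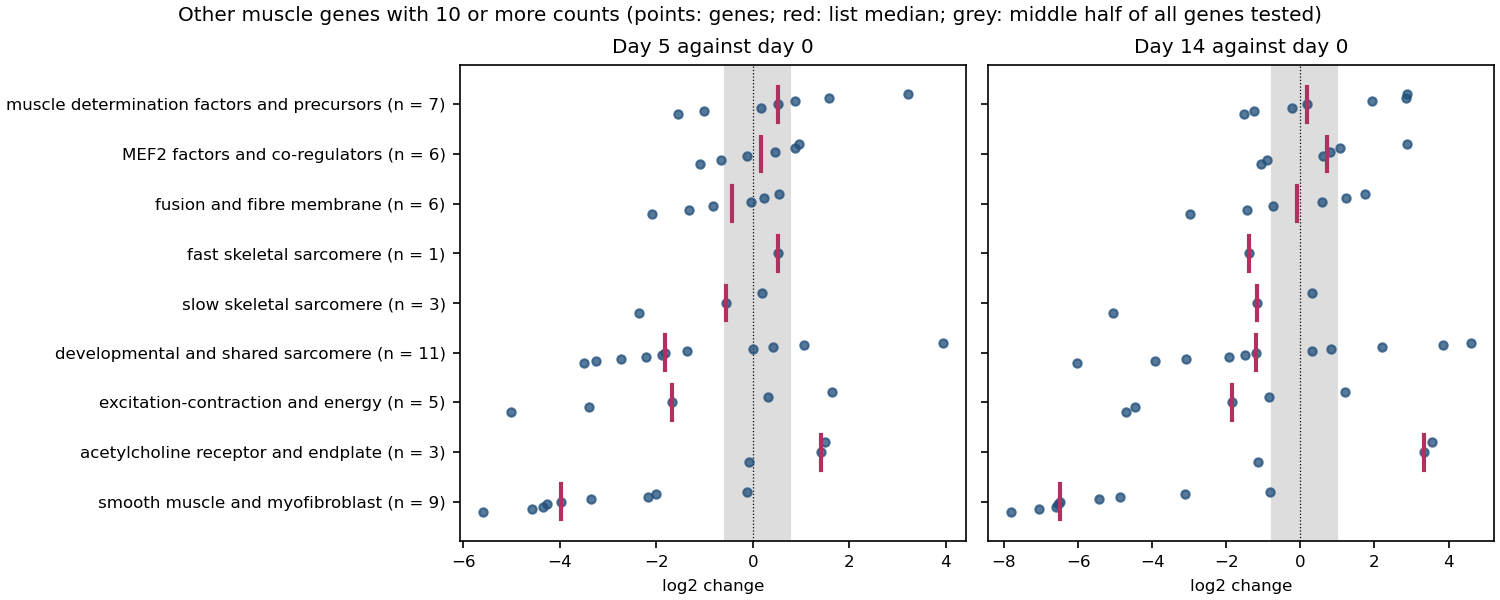
Log2 change from day 0 on days 5 and 14 (horizontal axes) of the muscle genes with 10 or more counts, by list, and of 9 smooth muscle markers, with each gene as a point, the list median as a red bar and the quartile range of all genes tested in grey. On day 14 the smooth muscle median is -6.48 and that of developmental and shared sarcomere genes -1.20.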

How the data were processed

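RNA from MEFs was measured in 5 libraries, 1 per day, grouped by their day labels. The authors deposited expected counts, made per library with RSEM and Bowtie on mm10 per the submitters' processing notes, with versions and annotation not given in the sources used here. Expected counts are estimates of reads per gene, not scaled for depth. The authors deposited TPM values, scaled by length, beside them, used as levels between genes and as an alternative, and FPKM values, which were not used.

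Symbols and coordinates came from GENCODE M21 (GRCm38) for 27247 of 27729 genes. Library sizes used TMM (edgeR 4.0.16, R 4.3.3) on rounded counts. Log2 changes used a pseudocount of 1, and calls a 2-fold threshold over the 13346 genes with 10 or more counts in 1 or more libraries. Intervals of ratios and shares were exact Clopper-Pearson intervals at 95% of the rounded counts, without a pseudocount. The floor was 3 counts per library. No test or pairing was possible with 1 library per day. Promoters came from RefSeq (GRCm38.p6), with entries for 8 of the 10 genes. The 10 genes and the wider lists were chosen with earlier results of these data known. From each list, up to 4 genes with 50 or more counts and the largest changes were named, and from marker lists those with the highest levels, with the exceptions stated. Genes that these rules name but the text omits are not reported here. Alternatives were DESeq2 size factors (1.42.0), total counts, TMM without Gm42418 and Lars2, TPM, a pseudocount of 5, rounded counts, a 4-fold threshold, no filter and 50 or more counts. TPM recentred to the main median was added after the data were seen. Computations were tested on simulated data. The software was Python 3.11.15 with matplotlib 3.10.9, pandas 2.3.3, scipy 1.17.1 and numpy 2.4.6.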

Additional observations from a re-analysis of the deposited data

How the results depend on the processing

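Size factors of DESeq2, total counts, TMM without Gm42418 and Lars2, and rounded counts left the 16 counts of calls, for the 10 genes and for the wider lists in each direction and on each day, within 1.5 times. No change of the 10 genes past 2-fold reversed under any alternative run, while 17 of 280 values moved by more than their counting interval.

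For the 10 genes, calls above day 0 numbered 2 on day 2 and 1 on day 5. They became 1 on day 2 with a 4-fold threshold, and 0 on both days with 50 or more counts, where Acta1 alone remains. The 5 calls below on day 2 became 3 with a pseudocount of 5, 2 with a 4-fold threshold, 1 with 50 or more counts and 3 with recentred TPM. The 6 calls below on days 5, 10 and 14 became 1 with 50 or more counts, and those on day 10 became 3 with TPM. As 1 was also added to each TPM value, changes of genes with low TPM shrink under that alternative.

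For the wider lists, the 6 calls above on day 2 became 1 with TPM, 3 with a pseudocount of 5, 12 with no filter, 1 with 50 or more counts and 2 with recentred TPM. The 7 above on day 5 became 11 with TPM, 2 with a 4-fold threshold, 12 with no filter, 2 with 50 or more counts and 3 with recentred TPM. The 16 above on day 10 became 8 with a 4-fold threshold, 9 with 50 or more counts and 9 with recentred TPM, and the 13 on day 14 became 8 with a 4-fold threshold and 7 with 50 or more counts. The 13 below on day 2 became 3 with a 4-fold threshold, 27 with no filter and 8 with 50 or more counts. The 16 below on day 5 became 10 with TPM, 8 with a 4-fold threshold, 31 with no filter and 10 with 50 or more counts. The 15 below on day 10 became 28 with no filter, and the 18 on day 14 became 8 with TPM, 7 with a 4-fold threshold, 30 with no filter and 10 with 50 or more counts. Fewer or more genes were counted under the filters by construction, and the cause of the other shifts was not tested.

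Depth limits what these libraries show. Acta1 is the 1 gene of the 10 above 50 counts, and Myod1, Myog and Tnnt3 stay under 10. With 1 library per day there was no replicate to leave out. No paired analysis was possible because each day has 1 library.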

Other observations

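Cardiac muscle genes, which share relatives with the skeletal sarcomere, differed in direction among themselves. Of 10 markers 6 reached 10 counts, with 1, 1, 2 and 3 over 2-fold above day 0 and 4, 2, 2 and 2 below on days 2, 5, 10 and 14. Among all genes tested 15.2%, 20.2%, 28.7% and 24.5% were above and 13.1%, 13.6%, 22.3% and 19.9% below. Myh6, among those above on days 10 and 14, reached 10 counts on day 10 alone, and these counts of calls support no direction. Tnni3, cardiac troponin I, had 1 expected count on day 0, then 22, 9, 5 and 11.3, with a log2 change of 4.36 on day 2 (interval 2.70 to 10.7). It reached 10 counts on days 2 and 14 alone, so its height over day 0 on those days was partly fixed by that filter. Tnnt2, cardiac troponin T, had 55.8, 6, 19, 13 and 9 expected counts and log2 changes of -2.24, -1.67, -2.45 and -2.64. Nppb, a natriuretic peptide, had 13, 1, 7, 20 and 39 expected counts and a log2 change of 1.37 on day 14.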
